A study of Mus musculus with 40 samples.

Results

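The 40 genes described here carry, guard or time the steps of the cell division cycle. They were taken by symbol from a list of cyclins, cyclin-dependent kinases (CDKs), CDK inhibitors, replication factors and mitotic proteins. The list was made by name and function, with earlier results of these data known. All 40 were found among the 21500 genes of the count table, and all 40 passed the filter on low counts that left 13993 genes for testing. They are given in the order of the cycle, first the genes that govern entry into it and then those that carry out S phase and mitosis, followed by how the members varied together from mouse to mouse. Liver RNA came from 20 male C57BL/6J mice, 10 in each group. The BLT1i mice (numbered 71 to 80) ate CDAA-HFD, which lacks choline, has defined amino acids, 60 kcal% fat and 0.1% methionine, from 8 weeks of age. After 4 weeks of it they also received BLT1i, at a dose of 90 mg/kg, over the last 8 weeks. The CDAA-HFD mice (numbered 31 to 40) ate the same diet for the same time without the compound. All livers were taken at 20 weeks of age. Every mouse was thus fed the diet that serves here as a model of liver fibrosis, and no mice on a normal diet were analysed here, so levels in a healthy liver cannot be read from these data. The labels add a code, L_286, to the BLT1i samples without giving its meaning. BLT1 is the usual name of a leukotriene B4 receptor, and the study is described as one of its inhibition.

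In a dividing cell, D-type cyclins bind Cdk4 or Cdk6, phosphorylate the retinoblastoma protein and release E2F factors, which turn on the genes for cyclin E, the MCM helicase and the enzymes of nucleotide supply. Later in the cycle the genes for cyclin B, Cdk1 and the proteins of the spindle and of chromosome separation are turned on. Their promoters are known for CHR elements, to which the MuvB complex with MYB and FOXM1 factors is recruited, and for CCAAT boxes, which NF-Y binds. Most hepatocytes of an adult liver are out of the cycle, and injury brings hepatocytes and non-parenchymal cells such as macrophages and fibroblasts back into it. In bulk liver RNA, fewer cycling cells and less RNA per cycling cell cannot be told apart.

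The total count per mouse was 18467060 to 26078285 in BLT1i livers and 20994073 to 27456678 in CDAA-HFD livers. Levels are given as CPM, counts relative to library size, scaled for library composition by the TMM method, and differences as log2 fold changes of BLT1i over CDAA-HFD with their standard error (SE). Adjusted p-values are from edgeR's quasi-likelihood F-test with Benjamini-Hochberg adjustment over the 13993 tested genes, and a gene was called at an adjusted p of at most 0.05. Over all tested genes 788 (5.63%) were called, 511 higher (3.65%) and 277 lower (1.98%) in BLT1i livers. The share of called genes that were higher was 64.8%, against 42.0% where library totals alone set the scale and 52.5% with upper-quartile factors.

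Of the 40 cell cycle genes 1 was called, beside 5.63% of all tested genes. It was Ccnd1, the gene of cyclin D1, and it was higher in BLT1i livers. None was called lower. At an unadjusted p of at most 0.05, which 19.7% of all tested genes reached, there were 3 members, with Ccnd1 and Cdk2 higher and Rrm2 lower. With DESeq2, likewise, Ccnd1 was the 1 member called. The median log2 fold change of the 40 members was -0.011 (18 above 0 and 22 below), beside -0.0086 over all tested genes. For 39 of the 40 members the 95% confidence interval of the log2 fold change lay within 0.5 on either side of 0. The same held for 12578 of the 13993 tested genes. The exception among the members was Cdkn1a, whose interval reached down to -0.51.

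**Figure D1:**
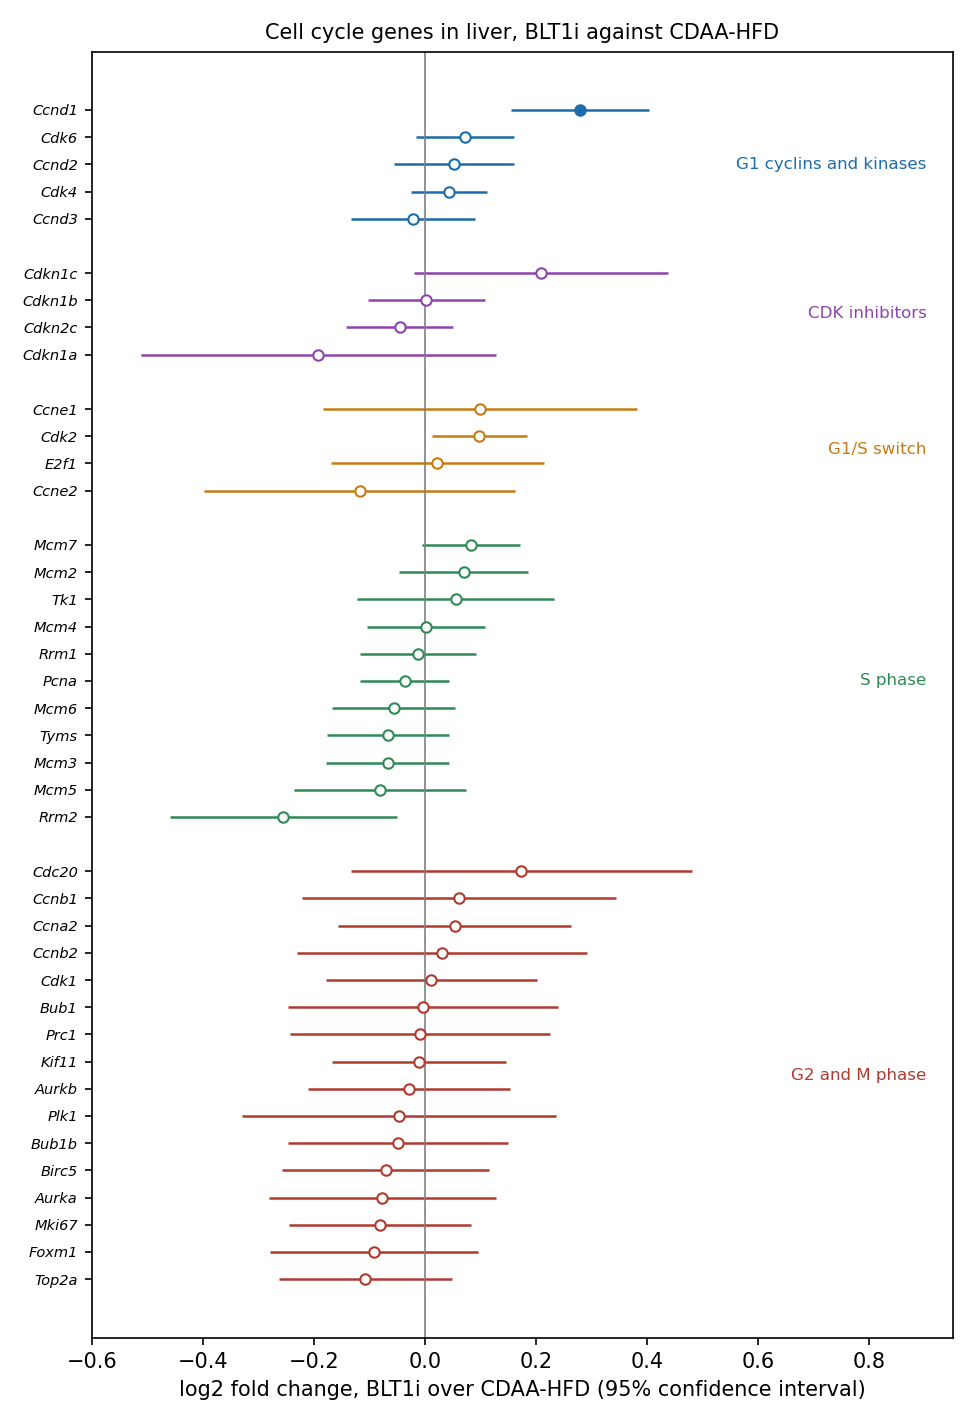
Log2 fold change of each of the 40 cell cycle genes, BLT1i over CDAA-HFD (horizontal axis), with its 95% confidence interval as a bar, grouped and coloured by role; the filled circle marks the gene past an adjusted p of 0.05 and open circles mark the others. Ccnd1 stands at 0.28, and the intervals of most other genes include 0.

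Among the regulators of G1, the phase in which a cell decides whether to divide, Ccnd1 was the member that differed. Its level was 241 CPM in the lowest, 306 in the median and 349 in the highest BLT1i liver, against 215, 254 and 292 CPM in CDAA-HFD livers. The groups overlapped, yet 9 of the 10 BLT1i mice lay above the CDAA-HFD median; the exception was mouse 73 at 241 CPM. The mean was 307 ± 31.3 CPM in BLT1i livers and 253 ± 24.0 CPM in CDAA-HFD livers (SD, n = 10 each), a log2 fold change of 0.28 ± 0.060 (SE) or 1.21-fold, with an edgeR adjusted p of 0.00631. Cyclin D1 is the D-type cyclin that hepatocytes induce when growth factors draw them out of quiescence. It was called higher under each other scaling, filter and tool tried and in each fit that left out 1 mouse (adjusted p up to 0.0159 among those 20 fits). Of the 16 immediate early genes listed, which answer stimuli within minutes, 11 were called higher and 0 lower, beside 3.65% and 1.98% of all tested genes. The summed level of the 16 was 1546 to 2497 CPM in BLT1i livers and 810 to 1480 CPM in CDAA-HFD livers, without overlap. In a fit that held the mean level of these genes constant, added once the data had been seen, the log2 fold change of Ccnd1 was 0.39 and its adjusted p 0.169, and 55 genes in all were called. The summed level of the immediate early genes separated the groups without overlap, so it cannot be told apart from treatment. Whether the mean level used in that fit overlapped between the groups is not shown here. The part of the immediate early genes in the level of Ccnd1 was not tested.

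The other genes of this class did not pass the test. Ccnd2, the gene of cyclin D2, was at 78.6 ± 5.88 CPM in BLT1i livers and 75.9 ± 7.44 CPM in CDAA-HFD livers. Ccnd3, the third D cyclin, was at 61.2 ± 5.05 CPM in BLT1i livers and 62.1 ± 5.88 CPM in CDAA-HFD livers. The kinases that the D cyclins activate had narrow intervals: the log2 fold change of Cdk4 was 0.043 (95% interval -0.026 to 0.11) and that of Cdk6 was 0.071 (-0.017 to 0.16), with edgeR adjusted p of 0.533 and 0.382. All 10 BLT1i mice were above the CDAA-HFD median of Cdk6, at 146 to 165 CPM, although the CDAA-HFD range of 126 to 170 CPM contained them. Per gene length, in the authors' FPKM values rounded to whole numbers, Ccnd1 had a mean of 72.1 in BLT1i livers and 60.4 in CDAA-HFD livers, above Cdk4 (28.9 and 27.3), Ccnd3 (25.4 and 26.0), Cdk6 (16.4 and 15.7) and Ccnd2 (11.1 and 11). Ccnd1 was thus the D cyclin gene with the highest level per length in both groups.

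The 4 CDK inhibitors hold cells in G1 or G0, p21, p27 and p57 by binding cyclin-CDK complexes and p18 by binding Cdk4 and Cdk6 themselves. None of them was called, beside 5.63% of all tested genes. Cdkn1a, which encodes p21, a target of p53, was the most variable. Its level was 26.3, 34.7 and 54.0 CPM in the lowest, median and highest BLT1i liver and 27.8, 43.2 and 58.7 CPM in CDAA-HFD livers. Both groups thus spread over about the same range, and 3 of 10 BLT1i mice lay above the CDAA-HFD median; the log2 fold change was -0.19 ± 0.15 (SE; edgeR adjusted p = 0.544). Its biological coefficient of variation, the spread between mice beyond counting error, was 0.234, where the trend over genes of its level gave 0.0954. Cdkn1c (p57), an imprinted inhibitor, was at 8.13 ± 1.09 CPM in BLT1i livers and 7.03 ± 1.56 CPM in CDAA-HFD livers (log2 fold change 0.21, adjusted p = 0.307). Cdkn1b (p27), the inhibitor that is abundant in resting cells, was at 62.4 ± 2.31 CPM in BLT1i livers and 62.4 ± 6.87 CPM in CDAA-HFD livers, and its interval ran from -0.10 to 0.11. Cdkn2c (p18) was at 14.8 ± 0.953 CPM in BLT1i livers and 15.3 ± 0.995 CPM in CDAA-HFD livers.

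The switch from G1 to S phase is run by cyclin E with Cdk2 and by E2f1. Cdk2 was at 16.4, 17.3 and 18.1 CPM in the lowest, median and highest BLT1i liver, against 14.5, 16.0 and 18.0 CPM in CDAA-HFD livers. All 10 BLT1i mice were above the CDAA-HFD median, but the CDAA-HFD range covered most of them. The log2 fold change was 0.097 ± 0.041 (SE), with an unadjusted p of 0.0277 and an edgeR adjusted p of 0.185, so it did not pass. The cyclins E were low: Ccne1 was at 2.26 ± 0.428 CPM in BLT1i livers and 2.10 ± 0.492 CPM in CDAA-HFD livers, and Ccne2 at 2.12 ± 0.366 CPM in BLT1i livers and 2.30 ± 0.542 CPM in CDAA-HFD livers, with as few as 30 counts in a mouse. E2f1, an activating E2F, was at 6.92 ± 0.983 CPM in BLT1i livers and 6.80 ± 1.10 CPM in CDAA-HFD livers.

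**Figure D2:**
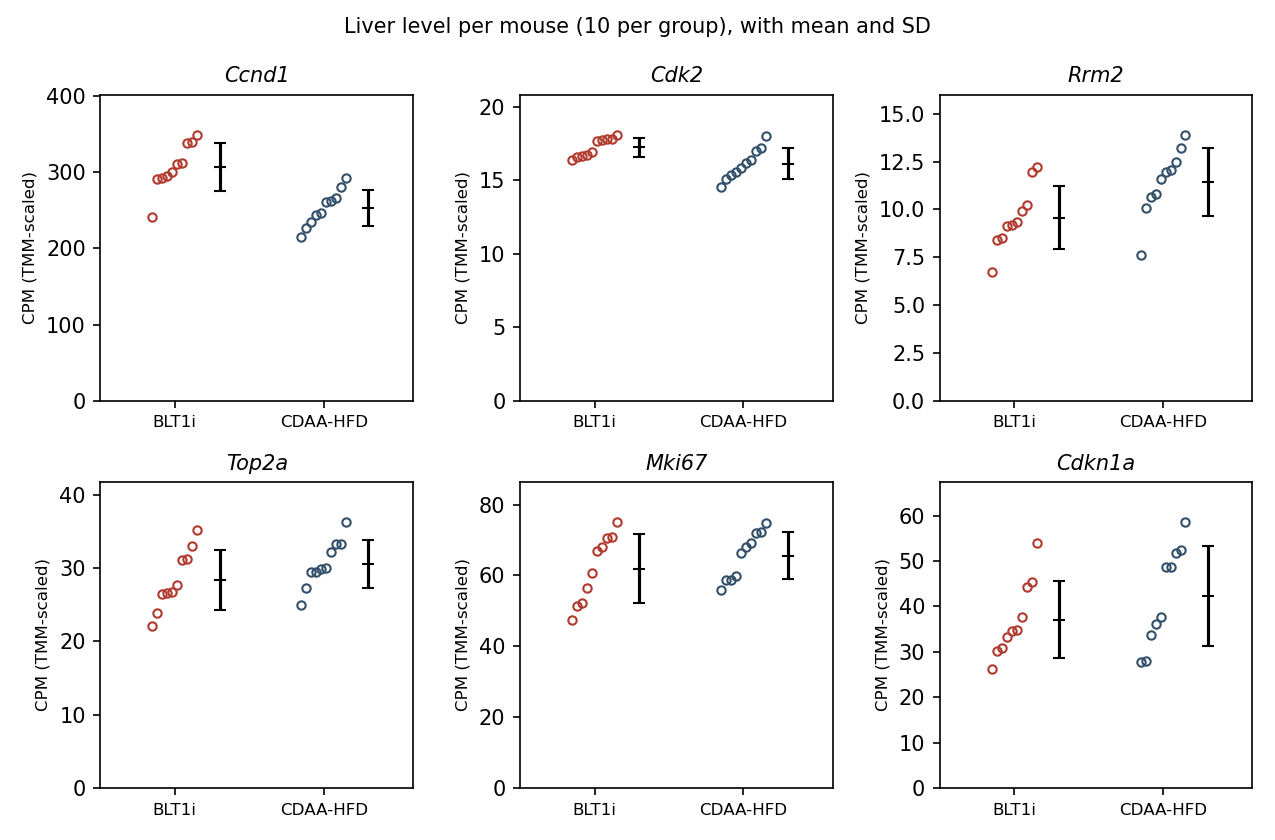
Level of 6 cell cycle genes in each liver (vertical axis, CPM after TMM scaling, starting at 0), BLT1i mice in red left of CDAA-HFD mice in blue, sorted by value within a group; bars show mean and SD of 10 mice. Ccnd1 lies at 241 to 349 CPM in BLT1i livers and 215 to 292 CPM in CDAA-HFD livers, and the groups overlap in all 6 panels.

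The 11 S phase genes copy DNA or supply its building blocks. None was called, beside 5.63% of all tested genes. Of the 11, 4 had a log2 fold change above 0 and 7 below, with a median of -0.037. Rrm2, the small subunit of ribonucleotide reductase that limits the supply of deoxynucleotides and is made in S phase, was furthest from 0. Its level was 6.72, 9.27 and 12.2 CPM in the lowest, median and highest BLT1i liver and 7.59, 11.8 and 13.9 CPM in CDAA-HFD livers. The ranges overlapped for the most part, and 2 of 10 BLT1i mice exceeded the CDAA-HFD median. The log2 fold change was -0.26 ± 0.099 (SE; means of 9.57 ± 1.65 CPM in BLT1i livers and 11.4 ± 1.78 CPM in CDAA-HFD livers), with an unadjusted p of 0.0161 and an edgeR adjusted p of 0.139. Whether Rrm2 passed depended on 1 mouse and on the values used: without CDAA-HFD mouse 36, the lowest of its group, the adjusted p was 0.0353 (log2 fold change -0.31), and in limma on the rounded FPKM it was 0.0258 to 0.0312. Rrm1, the large subunit, which is made more evenly through the cycle, had a log2 fold change of -0.013 (95% interval -0.12 to 0.092).

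The 6 subunits of the MCM2-7 helicase, which opens DNA at replication origins, had log2 fold changes of either sign, with intervals that all included 0. Mcm7 was at 21.9, 23.4 and 24.6 CPM in the lowest, median and highest BLT1i liver, against 19.9, 21.8 and 25.7 CPM in CDAA-HFD livers; its log2 fold change was 0.082 ± 0.043 (adjusted p = 0.292). Mcm5 was at 9.59, 11.2 and 14.5 CPM in BLT1i livers and 9.54, 12.2 and 14.1 CPM in CDAA-HFD livers; its log2 fold change was -0.081 ± 0.075 (adjusted p = 0.611). Only 1 BLT1i mouse lay above the CDAA-HFD median of Mcm5, whereas all 10 did for Mcm7. The log2 fold changes of the others were 0.069 for Mcm2, 0.00092 for Mcm4, -0.057 for Mcm6 and -0.068 for Mcm3, each with an interval that included 0. Pcna, the sliding clamp of the replication fork that also serves DNA repair, was at 51.2 ± 2.71 CPM in BLT1i livers and 52.5 ± 3.22 CPM in CDAA-HFD livers. The thymidylate enzymes were likewise not called: Tyms, which makes thymidylate from deoxyuridylate, had a log2 fold change of -0.067 (adjusted p = 0.545), and Tk1, the salvage kinase, had 0.055 (adjusted p = 0.790).

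None of the 16 genes of G2 and mitosis was called, beside 5.63% of all tested genes. Of the 16, 5 had a log2 fold change above 0 and 11 below, beside 6430 and 7563 of all tested genes. The 16 values ran from -0.11 (Top2a) to 0.17 (Cdc20), with a median of -0.020. These genes varied together between mice, so the 11 are not separate observations. Top2a, the topoisomerase that untangles sister chromosomes, was at 22.1, 27.3 and 35.3 CPM in the lowest, median and highest BLT1i liver and 24.95, 29.95 and 36.3 CPM in CDAA-HFD livers. Mki67, which encodes the proliferation marker Ki-67, was at 47.4, 63.8 and 75.1 CPM in BLT1i livers and 56.0, 67.2 and 74.7 CPM in CDAA-HFD livers. For both genes the lowest mouse was in the BLT1i group and the upper ends of the groups were alike; the log2 fold changes were -0.11 ± 0.076 for Top2a (adjusted p = 0.471) and -0.082 ± 0.079 for Mki67 (adjusted p = 0.629).

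The mitotic kinases and cyclins lay nearer to 0. Cdk1, the kinase that starts mitosis, was at 8.07 ± 1.25 CPM in BLT1i livers and 7.99 ± 1.17 CPM in CDAA-HFD livers, and its interval ran from -0.18 to 0.20. Its partners had log2 fold changes of 0.053 (Ccna2, cyclin A2), 0.060 (Ccnb1, cyclin B1) and 0.030 (Ccnb2, cyclin B2). Foxm1, the transcription factor that drives this programme, was at 8.71 ± 1.32 CPM in BLT1i livers and 9.29 ± 1.37 CPM in CDAA-HFD livers (log2 fold change -0.093, adjusted p = 0.634). The kinases Plk1, Aurka and Aurkb, which run centrosomes, spindle and chromosome attachment, had log2 fold changes of -0.047, -0.078 and -0.029. Bub1 and Bub1b, which delay separation until chromosomes are attached, had -0.0039 and -0.049.

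Cdc20, the activator of the ligase that starts chromosome separation, had the widest spread of this class. Its level was 8.41, 11.5 and 18.4 CPM in the lowest, median and highest BLT1i liver and 7.49, 9.90 and 13.9 CPM in CDAA-HFD livers. The highest mouse was in the BLT1i group, yet most mice of both groups overlapped, and the log2 fold change was 0.17 ± 0.15 (adjusted p = 0.577, 95% interval -0.13 to 0.48). The remaining genes, Birc5 (survivin, a partner of Aurkb), Prc1 (a bundler of the midzone spindle) and Kif11 (the motor that pushes spindle poles apart), had log2 fold changes of -0.071, -0.0098 and -0.012. Set side by side, 6 of the 9 G1 cyclins, kinases and inhibitors were above 0 (median 0.043, 1 called). So were 3 of the 4 genes of the G1/S switch (median 0.059, 0 called). Of the 27 S, G2 and M phase genes, 9 were above 0 (median -0.029, 0 called). Over all tested genes, 6430 of 13993 were above 0 (median -0.0086), and 5.63% were called. A difference between these classes was not tested.

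**Figure D3:**
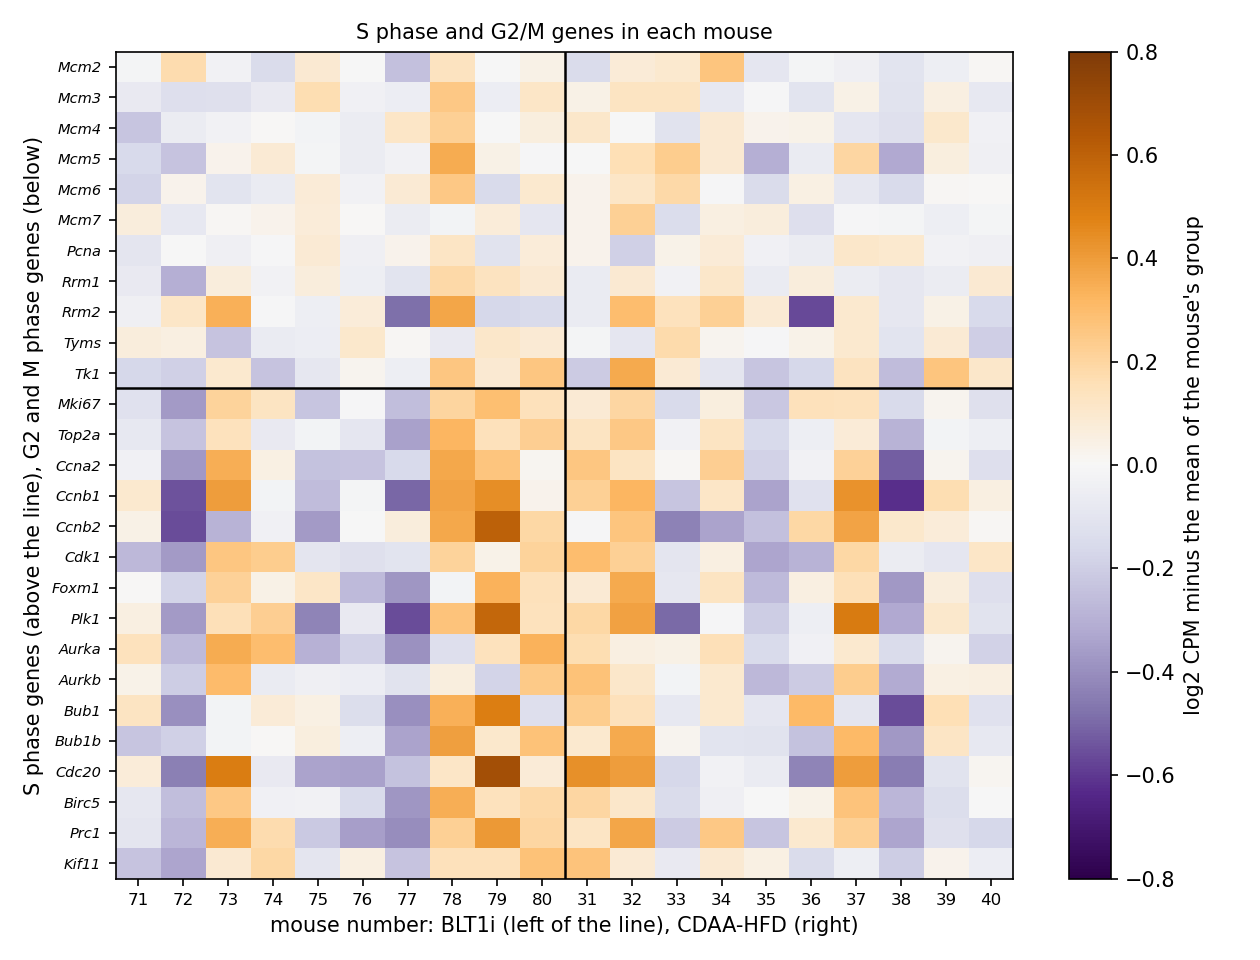
Deviation of each S phase gene (upper rows) and each G2 and M phase gene (lower rows) from the mean of the mouse's own group, in log2 CPM (colour), for each BLT1i mouse (left) and CDAA-HFD mouse (right). Mice 72 and 77 of the BLT1i group and mouse 38 of the CDAA-HFD group are low over most of the lower rows, and mice 73, 78 and 79 (BLT1i) and 31, 32 and 37 (CDAA-HFD) are high.

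Promoter sequence was read for the members because the G2 and M phase genes are known for a common promoter design. RefSeq windows on build GRCm38.p6, running from 250 bases before to 50 bases after the start of transcription, were at hand for 32 of the 40 members; Ccnd1, Ccnd2, Cdkn1c, Ccne2, Mcm4, Ccna2, Foxm1 and Aurkb had no entry. The windows were searched on both strands for CHR elements, spelled TTTGAA or in a variant form TTCGAA, for the CCAAT box by its own letters, and for E2F sites, spelled TTTCCCGC, TTTGGCGC, TTTGCCGC or TTTCGCGC; these words can overlap one another at their ends. A CHR element together with a CCAAT box was found in 11 of the 13 G2 and M phase genes with a window (84.6%), 2 of 10 S phase genes (20%) and 0 of 6 G1 cyclins, kinases and inhibitors, beside 8.61% of 27025 genes. Birc5 held neither word and Ccnb1 held CCAAT boxes alone. An E2F site was found in 4 of 10 S phase genes (40%) and 1 of 13 G2 and M phase genes, beside 2.6% of all genes. Such matches describe letters in a window and were not tested for factor binding here.

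The 100 bases just before the start of transcription are printed for 4 genes of the G2 and M phase class, to show the CHR elements and CCAAT boxes, and for Mcm6 and Cdk4 as an S phase and a G1 gene. They are written 5′ to 3′ on the strand of the gene, with every match to the searched words, on either strand, in capitals (TTCAAA and ATTGG are the reverse strand of TTTGAA and CCAAT).
Top2a, chr11:99024190-99024289, minus strand: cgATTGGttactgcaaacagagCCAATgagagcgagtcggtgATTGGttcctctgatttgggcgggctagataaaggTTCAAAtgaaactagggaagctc
Cdk1, chr10:69352913-69353012, minus strand: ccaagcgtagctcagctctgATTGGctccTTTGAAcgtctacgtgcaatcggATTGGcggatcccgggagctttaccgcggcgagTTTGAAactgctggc
Cdc20, chr4:118437344-118437443, minus strand: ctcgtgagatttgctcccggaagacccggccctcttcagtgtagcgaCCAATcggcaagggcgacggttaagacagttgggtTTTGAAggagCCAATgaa
Kif11, chr19:37376282-37376381, plus strand: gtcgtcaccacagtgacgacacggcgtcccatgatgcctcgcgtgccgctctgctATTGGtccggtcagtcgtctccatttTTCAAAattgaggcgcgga
Mcm6, chr1:128359706-128359805, minus strand: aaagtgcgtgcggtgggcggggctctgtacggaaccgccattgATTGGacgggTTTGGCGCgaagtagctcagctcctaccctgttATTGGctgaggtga
Cdk4, chr10:127063435-127063534, plus strand: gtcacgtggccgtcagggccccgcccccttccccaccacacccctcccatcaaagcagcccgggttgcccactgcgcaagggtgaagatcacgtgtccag
In these stretches Top2a holds 3 CCAAT boxes and 1 CHR element, Cdk1 has 2 of each, Cdc20 has 2 CCAAT boxes and 1 CHR element, and Kif11 has 1 of each. Mcm6 holds 1 E2F site and 2 CCAAT boxes, and Cdk4 none of the words.

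The G2 and M phase genes varied together between mice of the same group. Correlations were taken over 20 mice on log2 CPM after subtracting the mean of each group, which removes the mean difference between the groups. Over the 120 pairs of G2 and M phase genes the median Pearson r was 0.67, all 120 were above 0, and 84.2% exceeded 0.5. Over all 97895028 pairs of tested genes the median was -0.002 and 4.27% exceeded 0.5. The pattern stood within each group, with a median r of 0.69 in BLT1i mice (119 of 120 pairs above 0) and 0.67 in CDAA-HFD mice (118 of 120). These medians describe genes measured in the same libraries and carry no p-value.

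**Figure D4:**
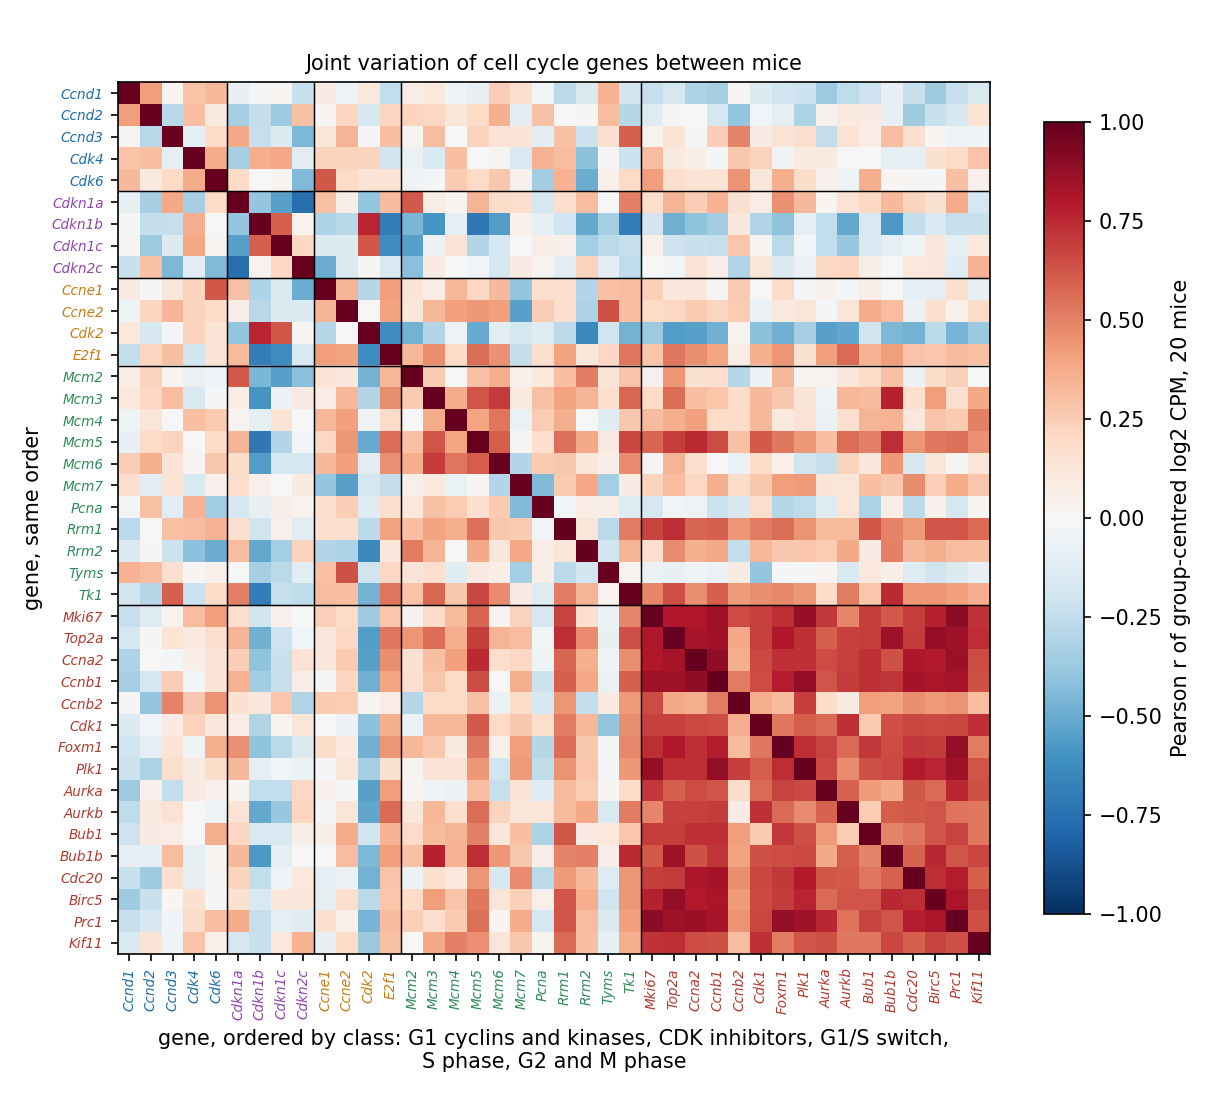
Pearson r between each pair of the 40 cell cycle genes over 20 mice, from group-centred log2 CPM (colour scale from -1 to 1), genes ordered by class with lines between classes. The G2 and M phase block at the lower right has a median r of 0.67, while the block of G1 cyclins and kinases with G2 and M phase genes has a median of 0.012.

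The mean log2 CPM of the 16 G2 and M phase genes gives each mouse 1 level. It was 2.79, 3.15 and 3.42 in the lowest, median and highest BLT1i mouse and 2.85, 3.14 and 3.39 in CDAA-HFD mice. The highest mouse thus stood 1.54-fold above the lowest within the BLT1i group and 1.45-fold within the CDAA-HFD group, while the group means were 3.13 ± 0.223 and 3.15 ± 0.180 (SD, n = 10 each) in BLT1i and CDAA-HFD mice. Mice 72 (2.79) and 77 (2.83) were lowest in the BLT1i group, and mouse 38 (2.85) in the CDAA-HFD group. Mouse 77 also had the smallest library. Over 20 mice this mean and the log2 total count had r = 0.30 (permutation p = 0.219) and rho = 0.28 (p = 0.252), and r = 0.36 without the 2 mice farthest in total count; the part of depth in the pattern was not tested further.

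Within the class, Ccnb1 and Prc1 followed the others most closely, with a median r of 0.79 and 0.78 with the other 15 genes, and Ccnb2 least, with 0.40. Ccnb2 correlated weakly with Aurkb (r = 0.082), the lowest of the 120 pairs. For Top2a with Mki67, r was 0.80 (rho = 0.72), 0.82 within BLT1i mice and 0.77 within CDAA-HFD mice; the permutation p adjusted over the 13 pairs tested was 0.00117, and r was 0.77 without the 2 mice farthest in Top2a. For Top2a with Cdk1, r was 0.69 (rho = 0.71, adjusted permutation p = 0.00884), 0.70 within BLT1i mice and 0.67 within CDAA-HFD mice, and 0.71 without the 2 farthest mice. Among 13325 genes with a mean of at least 1 CPM, the 5 most like Top2a in this measure were Birc5 (0.88), Ckap2l (0.87), Ccnb1 (0.85), Prc1 (0.85) and Bub1b (0.84). Of these, Ckap2l, a spindle protein gene, is not among the 40.

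The S phase genes varied together less. Their 55 pairs had a median r of 0.26, with 45 above 0 and 16.4% above 0.5, and their median with G2 and M phase genes was 0.27. Their spread between mice was also smaller: the median biological coefficient of variation was 0.0755 for S phase genes and 0.131 for G2 and M phase genes, beside 0.0865 over all tested genes. S phase genes ranged in how they followed the mitotic genes. Rrm1 (median r 0.56 with the 16 genes), Mcm5 (0.54) and Tk1 (0.45) had the highest values. Between lay Rrm2 (0.32), Mcm3 (0.29), Mcm4 (0.27), Mcm7 (0.27) and Mcm2 (0.13). Lowest were Mcm6 (0.084), Tyms (-0.066) and Pcna (-0.14). Mcm5 with Mcm6 had r = 0.61 (adjusted permutation p = 0.0214), 0.52 within BLT1i mice and 0.73 within CDAA-HFD mice. That relation rested on a few mice: rho was 0.36 (adjusted p = 0.219) and r was 0.39 without the 2 mice farthest in Mcm5. Top2a with Rrm2 (r = 0.48, rho = 0.40, adjusted permutation p = 0.129; r = 0.19 without the 2 farthest mice) and Top2a with Mcm6 (r = 0.34, rho = 0.33, adjusted p = 0.276) did not pass.

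The G1 regulators had correlations of either sign with the mitotic genes. Over 20 mice the median r was 0.012 between G1 cyclins or kinases and G2 and M phase genes, made of -0.078 within BLT1i mice (30 of 80 pairs above 0) and 0.20 within CDAA-HFD mice (65 of 80). Between CDK inhibitors and G2 and M phase genes it was -0.018 over 20 mice, 0.059 within BLT1i mice (37 of 64 pairs above 0) and -0.15 within CDAA-HFD mice (27 of 64). These differences between the groups were not tested. Single inhibitors had medians of either sign: Cdkn1a had a median r of 0.22 with the 16 genes (15 above 0) and Cdkn1b -0.25 (1 above 0). For Cdk2 the median r was -0.46 (1 of 16 above 0), and for E2f1 it was 0.35 (16 of 16 above 0). The 16 genes varied together, so their signs are not separate observations, and these medians were not tested. Ccnd1, the gene that was higher in BLT1i livers, had a median r of -0.22 with the 16 genes. With Top2a it had r = -0.18 and rho = -0.12 (adjusted permutation p = 0.567 for r), made of r = -0.58 within BLT1i mice (permutation p = 0.0720) and r = 0.43 within CDAA-HFD mice (p = 0.211); the difference between the groups was not tested. With Egr1, an immediate early gene, r was -0.44 and rho -0.39 (adjusted permutation p = 0.129; r = -0.56 without the 2 mice farthest in Ccnd1), with -0.11 within BLT1i mice and -0.68 within CDAA-HFD mice. Ccnd1 with Cdkn1a (r = -0.073, rho = -0.13, adjusted p = 0.762), Ccnd1 with Mcm6 (r = 0.24, rho = 0.21, adjusted p = 0.415) and Top2a with Cdkn1a (r = 0.34, rho = 0.41, adjusted p = 0.266) did not pass either, all by permutation. The 5 genes most like Ccnd1 were Tmem14a (0.88), St3gal6 (0.73), Csrp3 (0.69), Wdr72 (0.68) and Aldh3b3 (0.67). None of them is among the 40, and Tmem14a was low, at 1.85 ± 0.377 CPM in BLT1i livers and 2.19 ± 0.453 CPM in CDAA-HFD livers.

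**Figure D5:**
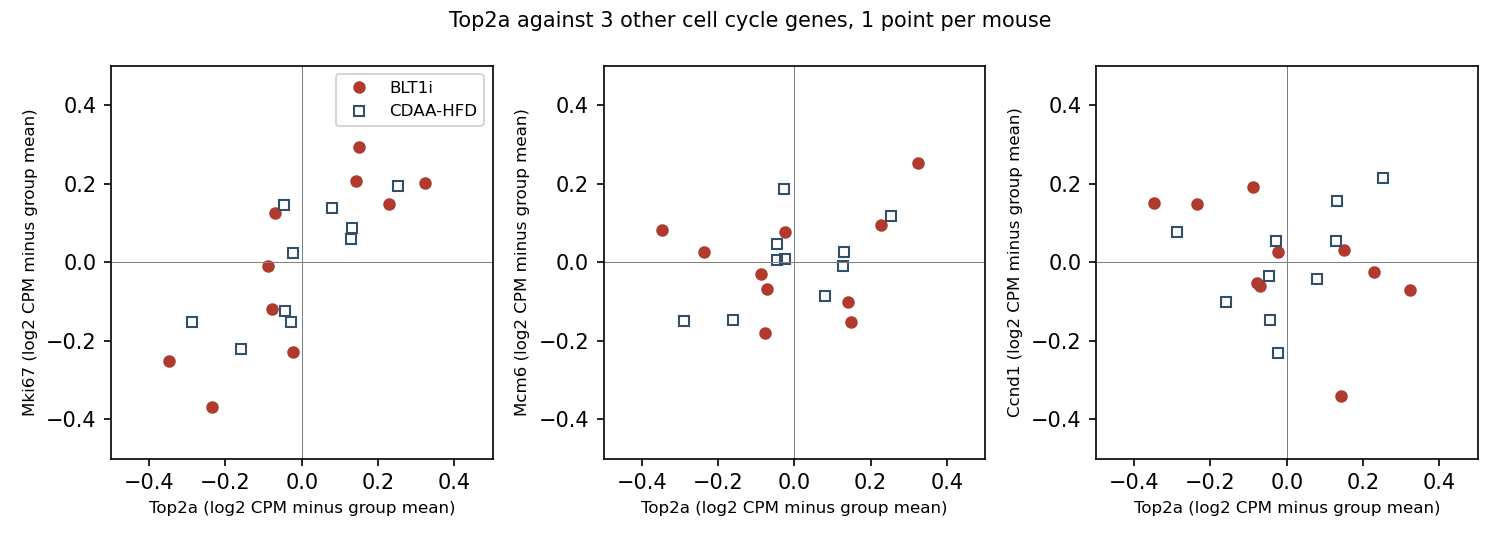
Group-centred log2 CPM of Mki67, Mcm6 and Ccnd1 (vertical axes) against Top2a (horizontal axes), 1 point per mouse, filled red circles for BLT1i and open blue squares for CDAA-HFD. Mki67 follows Top2a (r = 0.80 over 20 mice), while Mcm6 (0.34) and Ccnd1 (-0.18) do so less.

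Lists of other genes of the pathway were read in the same way, beside the 5.63% of all tested genes called (3.65% higher and 1.98% lower). Of 50 other mitosis genes 1 was called, Nek2, a centrosome kinase, which was higher in BLT1i livers: 7.74, 10.4 and 13.3 CPM in the lowest, median and highest BLT1i liver against 6.45, 7.82 and 10.48 CPM in CDAA-HFD livers (log2 fold change 0.37 ± 0.097, edgeR adjusted p = 0.0214). The ranges overlapped, and the call was lost on the rounded FPKM. Of 40 tested other replication genes 0 were called by edgeR, with 1 higher and 3 lower at an unadjusted p of at most 0.05. The nearest to the threshold were Mcm10, which helps start replication forks (41.6 ± 5.66 CPM in BLT1i livers and 33.5 ± 7.07 CPM in CDAA-HFD livers, adjusted p = 0.0976), and Rpa2, which coats single-stranded DNA (4.17 ± 0.182 CPM in BLT1i livers and 4.73 ± 0.570 CPM in CDAA-HFD livers, adjusted p = 0.139). Mcm10 passed with DESeq2, and in edgeR without CDAA-HFD mouse 31 or without CDAA-HFD mouse 38 (adjusted p down to 0.0404). The median log2 fold change was -0.030 over the replication genes and -0.023 over the mitosis genes.

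Among 29 tested other genes of G1 control and the RB-E2F system, 2 were called higher and 1 lower. Over all tested genes the shares were 3.65% and 1.98%. E2f8, an atypical E2F that represses E2F targets, was 1.77-fold higher: 6.75, 12.8 and 18.1 CPM in the lowest, median and highest BLT1i liver against 5.75, 6.90 and 10.2 CPM in CDAA-HFD livers (log2 fold change 0.82 ± 0.14, adjusted p = 0.00106). The lowest BLT1i mouse lay within the CDAA-HFD range and most others above it. Mycn, a MYC family factor, was lower, at 1.27 ± 0.310 CPM in BLT1i livers and 2.07 ± 0.619 CPM in CDAA-HFD livers (log2 fold change -0.70 ± 0.17, adjusted p = 0.0165), and its call was lost on the rounded FPKM. E2f5, a repressive E2F, was 1.16-fold higher, with a mean of 7.64 ± 0.431 CPM in BLT1i livers and 6.60 ± 0.674 CPM in CDAA-HFD livers (adjusted p = 0.0359). Its call was lost on leaving out any of 10 mice (numbers 32, 33, 34, 38, 39, 71, 72, 75, 78 and 79; adjusted p up to 0.0699), and also with upper-quartile factors, with library totals and on the rounded FPKM.

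Of 18 p53 targets, which include genes that arrest the cycle, 2 were called higher and 1 lower, beside 3.65% and 1.98% of all tested genes. Btg2, an antiproliferative gene, was 2.14-fold higher (162 ± 32.1 CPM in BLT1i livers and 75.9 ± 25.2 CPM in CDAA-HFD livers, adjusted p = 0.000517), and Plk3, a stress-responsive polo-like kinase, 2.16-fold higher (177 ± 55.1 CPM in BLT1i livers and 81.9 ± 19.3 CPM in CDAA-HFD livers, adjusted p = 0.00058). Both are also known as rapidly induced genes. Phlda3, an inhibitor of AKT, was lower, at 9.79 ± 1.13 CPM in BLT1i livers and 11.9 ± 1.10 CPM in CDAA-HFD livers (log2 fold change -0.27, adjusted p = 0.0143). Of the immediate early genes Egr1 differed most, at 471 ± 89.6 CPM in BLT1i livers and 167 ± 64.6 CPM in CDAA-HFD livers (log2 fold change 1.49 ± 0.19, adjusted p = 5.83e-05), and Jun, a subunit of the AP-1 factor, was at 269 ± 40.3 CPM in BLT1i livers and 164 ± 20.4 CPM in CDAA-HFD livers (0.71 ± 0.084, adjusted p = 1.04e-05). Ccn1, Zfp36, Ier3 and Atf3 were called higher with log2 fold changes of 1.01, 0.75, 0.53 and 0.52.

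The markers of cell types that could hold cycling cells were set beside these results, with 5.63% of all tested genes called. Hepatocyte markers summed to 45530 to 55300 CPM in BLT1i livers and 44740 to 54040 CPM in CDAA-HFD livers, with 0 of 5 called, and were the most abundant of the marker lists. Endothelial markers were above 0 in 6 of 6, and 2 were called higher (Kdr 0.21, adjusted p = 0.00344; Clec4g 0.23, adjusted p = 0.00954); they summed to 426 to 497 CPM in BLT1i livers and 365 to 459 CPM in CDAA-HFD livers. Macrophage markers were below 0 in 6 of 7, with a median log2 fold change of -0.12; Itgam was called lower (-0.28, adjusted p = 0.0112) and Mrc1, the 1 above 0, was called higher (0.15, adjusted p = 0.0455). At an unadjusted p of at most 0.05, 3 were lower and 1 higher, and the list summed to 1708 to 2296 CPM in BLT1i livers and 1541 to 2345 CPM in CDAA-HFD livers. Stellate cell and fibroblast markers summed to 2285 to 3073 CPM in BLT1i livers and 2643 to 3137 CPM in CDAA-HFD livers, with 0 of 7 called. Of these 7, 5 had log2 fold changes below 0 and 2 above, with 2 lower at an unadjusted edgeR p of at most 0.05. Cholangiocyte markers summed to 568.0 to 836 CPM in BLT1i livers and 630 to 918 CPM in CDAA-HFD livers; all 6 had log2 fold changes below 0, and 0 were called.

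Lymphoid markers were low. T and NK cell markers summed to 9.54 to 21.3 CPM in BLT1i livers and 13.5 to 20.0 CPM in CDAA-HFD livers. Of these 8 markers, 4 had a log2 fold change above 0 and 4 below, with a median of -0.020. Cd8a was the 1 called, and it was higher (0.71, edgeR adjusted p = 0.0105). B and plasma cell markers summed to 5.91 to 10.4 CPM in BLT1i livers and 5.14 to 11.9 CPM in CDAA-HFD livers. Of the 5 tested, 4 had a log2 fold change above 0. Neutrophil markers summed to 17.8 to 28.2 CPM in BLT1i livers and 22.1 to 30.6 CPM in CDAA-HFD livers. All 4 tested were below 0, with 1 lower at an unadjusted edgeR p of at most 0.05. None of either list was called by edgeR, beside 5.63% of all tested genes. Erythroid markers summed to 46.4 to 53.2 CPM in BLT1i livers and 40.9 to 60.5 CPM in CDAA-HFD livers, with 0 of 3 tested called. Of the 5 tested liver tumour and fetal markers 1 was called, beside 5.63% of all tested genes. It was Lcn2, which was lower (-0.67, edgeR adjusted p = 0.00245). Of the 5, 4 had a log2 fold change below 0 and 1 above. The list summed to 222 to 387 CPM in BLT1i livers and 287 to 587 CPM in CDAA-HFD livers. Of the markers in the table none was at 0 in all mice. Top2a had r = 0.39 (rho = 0.53) with the macrophage gene Adgre1, 0.12 (0.018) with the T cell gene Cd3e and -0.29 (-0.39) with the cholangiocyte gene Krt19 over 20 mice, with adjusted permutation p of 0.229, 0.692 and 0.364 for r. The part of these cell types in the level of Ccnd1 or of the mitotic genes was not tested.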

How the data were processed

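For each of 20 mice the authors deposited a column of whole-number counts per coding gene, although the labels list 40 samples (2 sequencing lanes per mouse); how lanes were merged is not stated. The authors also deposited FPKM values rounded to whole numbers, treated as a score and used for alternatives and levels per length; 43.3% of them were 0. Per the labels' protocols, libraries came from a stranded total RNA kit with ribosomal RNA removal, while the molecule label reads polyA. The build was GRCm39, per the submitters' processing notes; the aligner and the counting tool are not given in the sources at hand. Symbols came from a gene name table (21457 of 21500 identifiers named).

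Counts were filtered with filterByExpr, scaled by TMM and tested in edgeR 4.0.16 under R 4.3.3 by a two-sided quasi-likelihood F-test with robust fitting, with limma 3.58.1, DESeq2 1.42.0 and sva 3.50.0 for alternatives. The SE is the log2 fold change divided by the square root of F. Intervals cover 95%. Log2 CPM used a prior count of 2. Correlations were tested by 100000 permutations within groups, two-sided, adjusted over 13 pairs. The edgeR test was checked on simulated counts and the permutation test on simulated normal values. Named genes were all 40 members, called members of the other lists (up to 6, lowest p first; where none was called, the 2 lowest p) and the 5 genes most like Top2a and Ccnd1; markers named singly were chosen after their values were seen. Members and lists were chosen with earlier results of these data known. Alternatives were other scalings, filters and tools, the rounded FPKM, 1 surrogate variable, other thresholds and each mouse left out. Per the labels each column is another animal, with no cage or batch given; mouse numbers run in a separate block for each group, so effects that follow that order cannot be told apart from treatment. The total counts above set the precision; the lowest value of a member rested on 30 counts.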

Additional observations from a re-analysis of the deposited data

Results flagged for a closer look

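Each of the 40 genes was screened within each group of 10 mice for a lowest or highest value whose gap to its neighbour was more than 0.466 of the group's range, and 2 of 80 screened groups had one; chance flags about 1 in 20 groups. Mcm5 in BLT1i mouse 78 was at 14.5 CPM, with the nearest BLT1i mouse at 12.0 CPM and the lowest at 9.59 CPM, a gap of 0.51 of the range. Mcm7 in CDAA-HFD mouse 32 was at 25.7 CPM, with the nearest CDAA-HFD mouse at 23.0 CPM and the lowest at 19.9 CPM, a gap of 0.47 of the range. Both mice were among those with high levels of the G2 and M phase genes.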

How the results depend on the processing

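Of 1239 combinations of a member and an alternative, 1147 kept the direction and the side of the threshold. Ccnd1 was called higher under every other setting tried and not with the immediate early covariate (added after seeing the data), where all genes gave 55 calls, 50 higher and 5 lower. Rrm2 made 1 member called lower on the rounded FPKM (all 3 settings), and leaving out mice gave 0 to 1. All genes gave 1306 calls at an adjusted p of at most 0.1 (540 lower) and 280 at 0.01 (232 higher, 48 lower). Genes called lower were 540 with library totals, 184, 181 and 184 on the rounded FPKM, and 168 (without BLT1i mouse 79; 171 without CDAA-HFD mouse 33) to 342 on leaving out a mouse.

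Changes of sign were limited to uncalled members near 0; the cause was not tested. On the rounded FPKM plus 1 (with and without the filter) or plus 0.1, the log2 fold change was -0.015 or -0.025 for Ccnb2, -0.083 or -0.11 for Mcm4, 0.059 or 0.093 for Aurka and 0.032 or 0.040 for Prc1. With upper-quartile factors it was -0.0026 for Cdk1, -0.012 for Mcm4 and -0.012 for Cdkn1b; with library totals -0.019 for Cdk1, -0.028 for Mcm4, -0.029 for Cdkn1b and -0.0063 for E2f1. With 1 surrogate variable it was -0.00068 for Ccnb2, -8.96e-05 for Cdk1, -0.0017 for Mcm4 and -0.0021 for E2f1, and with limma-voom 0.0010 for Rrm1, 0.041 for Bub1 and 0.028 for Prc1. Leaving out mice moved Rrm1 from -0.035 to 0.016, Ccnb2 from -0.049 to 0.083, Ccnd3 from -0.034 to 0.0068, Cdk1 from -0.023 to 0.050, Mcm4 from -0.026 to 0.026, Bub1 from -0.065 to 0.037, Aurkb from -0.066 to 0.0082, Plk1 from -0.12 to 0.016, Cdkn1b from -0.026 to 0.023, E2f1 from -0.023 to 0.063, Prc1 from -0.058 to 0.038 and Kif11 from -0.043 to 0.026. With Spearman's rho 2 of 13 pairs passed, in place of 3.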
